A study of Mus musculus with 8 samples.

Results

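Claudins are the membrane proteins that set what a tight junction between epithelial cells lets through: their outer loops meet those of the neighboring cell and either seal the gap or form pores with a preference for charge and size. In the kidney each nephron segment has its own set, so that the leaky proximal tubule, the cation-selective thick ascending limb (TAL) and the tight collecting duct reabsorb different ions between the cells. This account is about the 10 claudin genes listed by name as those of the nephron, Cldn1, Cldn2, Cldn3, Cldn4, Cldn7, Cldn8, Cldn10, Cldn14, Cldn16 and Cldn19, chosen by gene symbol out of 55367 genes in the count matrix. All 10 had a row, and 9 passed the filter on low counts that left 20149 genes to be tested. Cldn14 did not pass it and is described from its counts.

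RNA-Seq was performed on whole kidneys of 4 Maf conditional KO mice and 4 Maf flox/flox mice, all C57BL/6J and labelled as 8 weeks old, to learn which kidney genes depend on the transcription factor c-Maf in the adult. The KO mice carry the floxed c-Maf gene and a CAG-Cre-ERTM transgene, whose CAG promoter drives the tamoxifen-inducible Cre recombinase in nearly all tissues rather than in the kidney alone. The flox/flox mice carry the floxed gene without Cre, and the methods describe tamoxifen for both groups. Each library was 1 mouse of its own. The labels do not give the sex of the mice.

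The counts added up to between 16649129 and 22990257 reads per mouse, and levels are given as CPM, the counts of a gene relative to all counts of its library, after TMM scaling of the libraries (TMM CPM). Maf itself was at 9.06 to 34.5 TMM CPM in the KO mice and 305 to 380 TMM CPM in the flox/flox mice, a log2 fold change of -4.05 ± 0.51 (SE; adjusted p = 0.0115, edgeR quasi-likelihood test). Although the extraction text in the labels speaks of liver, the kidney markers were abundant (Umod, the TAL glycoprotein, at 1648 to 3196 TMM CPM) and of 6 hepatocyte markers Ahsg was at 0 counts in all 8 mice, Serpina1e at up to 0.352, Fgb at up to 3.77 and Alb at 0.661 to 8.85 TMM CPM. The 2 other genes of that list were present, Fga at 17.9 to 49.2 and Apob at 435 to 710 TMM CPM. KO mouse 1 stood apart, with 32.3% of its counts on mitochondrial genes against 17.1% to 25.5% in the others. KO mouse 1 and flox/flox mice 3 and 4 had 2 to 22 counts of Xist, the RNA of the inactive X chromosome, whereas the other 5 mice had 17618 to 22387, so values among those 5 are given as well. For Maf the log2 fold change there was -3.87, with an adjusted p of 0.108.

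The promoters are shown first, because c-Maf acts by binding DNA. Large Maf proteins recognize elements built on the core TGCTGA, alone or joined to TGACTCA. RefSeq windows from 250 bases before to 50 bases after a transcription start (GRCm38.p6) were found for 9 of the 10 claudins, with Cldn8 the exception. On either strand, TGCTGA occurred in the windows of 4 of these 9 claudins, while 19.5% of all 32851 windows, or 21.7% of the genes with a window, held it. TGACTCA occurred in the window of 1 claudin and in 5.20% of all windows. The full TRE-type Maf recognition element, present in 1 window of the whole table, and the full CRE-type element, present in 0, were in no claudin window. The stretches of 30 bases around each match are given with the matched letters in capitals (TCAGCA is TGCTGA read on the other strand), each on the strand of its gene.
Cldn2, 225 bases before the start, chrX:139800571-139800600, plus strand: aggcttccttccTGCTGAgccttggggctg
Cldn3, 171 bases before the start, chr5:134986031-134986060, plus strand: aacacatacactTCAGCAttgaggttctag
Cldn19, 33 or 61 bases before its 2 starts, chr4:119255396-119255425, plus strand: tgcattctggaaTCAGCAgccactgcctct
Cldn14, 39 bases before 1 of its 3 starts, chr16:93929589-93929618, minus strand: tgaaagtttgccTCAGCAgggccaccttgt
Cldn4, 240 bases before the start, chr5:134947155-134947184, minus strand: tctaggctggTGACTCAgtgtctgtgtccc
Cldn4, 158 bases before the start, chr5:134947075-134947104, minus strand: gatactggcgggTGACTCAggggcccagga
These letters are a description of the windows and not evidence of binding.

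Cldn1 was the only claudin of the 9 tested whose level differed between the genotypes at an adjusted p under 0.05, and its window held neither motif. The 250 bases before its start (chr16:26371840-26372089, minus strand, 55.6% G or C) are printed because it is the member that changed.
Cldn1: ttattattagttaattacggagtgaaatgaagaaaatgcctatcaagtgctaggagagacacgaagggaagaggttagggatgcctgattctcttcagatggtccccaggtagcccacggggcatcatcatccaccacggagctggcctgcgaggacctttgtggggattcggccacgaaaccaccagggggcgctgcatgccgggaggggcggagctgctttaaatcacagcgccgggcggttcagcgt
That the window holds no match says only that these letters are not in it.

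Scaled for exon length, Cldn2 was by far the most abundant member, with 81.0 to 136 TMM CPM per kb of exon across the 8 mice, followed by Cldn10 at 35.6 to 50.8 and Cldn8 at 16.5 to 26.9 TMM CPM per kb. The ranges of these 3 genes did not overlap with each other. Cldn19 (6.71 to 13.97), Cldn7 (6.01 to 12.6), Cldn3 (6.83 to 12.4) and Cldn4 (5.39 to 13.7 TMM CPM per kb) overlapped and cannot be ordered beyond their spread. Cldn16, at 4.25 to 7.48 TMM CPM per kb, had a lower mean but overlapped with all 4 of them and with Cldn1, which was at 1.87 to 5.81. Cldn14, at 0 to 0.636 TMM CPM per kb, lay below all the others. Cldn2 made up 36.6% to 57.2% of the 10 claudins per kb in a mouse, and its mean share was 47.9% ± 7.76 in the KO mice and 50.9% ± 7.33 in the flox/flox mice (SD, n = 4 each).

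**Figure D1:**
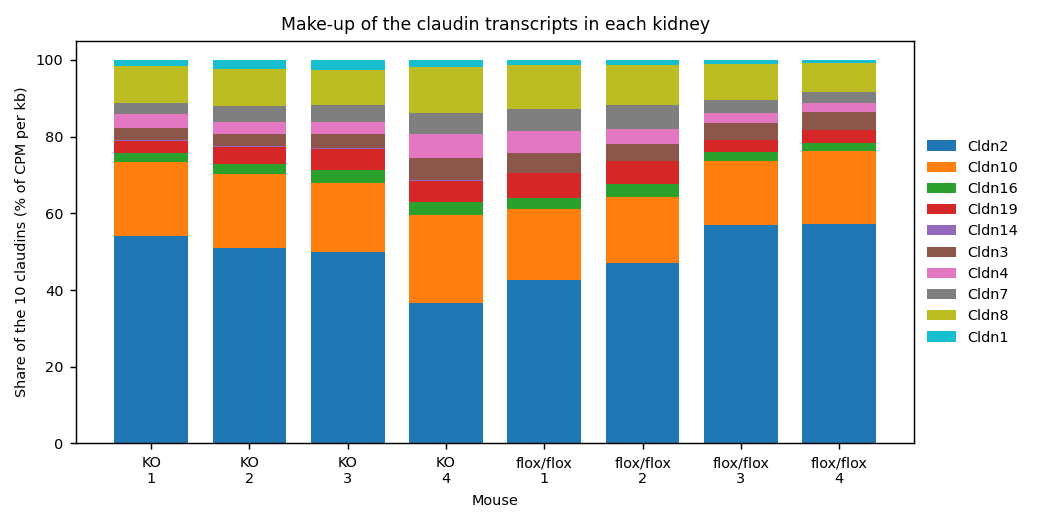
Share of each of the 10 claudins in their summed level (percent of TMM CPM per kb of exon, y axis) in each of the 8 mice (x axis). Cldn2 was the largest share in every mouse, lowest in KO mouse 4 (36.6%) and highest in flox/flox mouse 4 (57.2%), and Cldn14 was under 1% everywhere.

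Of the 9 claudins tested, 1 was called higher in the KO mice and 0 lower, beside 2.16% of all genes called in the same test (0.586% higher and 1.58% lower). The groups did not overlap for the same 1 claudin, as for 9.79% of all genes, and 1 of 9 had an unadjusted p under 0.05, as did 14% of all genes. Their median log2 fold change was 0.06, beside 0.00 over all genes tested. The summed level of all 10 members ran from 610.0 to 671 TMM CPM in the KO mice and from 590 to 699 TMM CPM in the flox/flox mice.

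**Figure D2:**
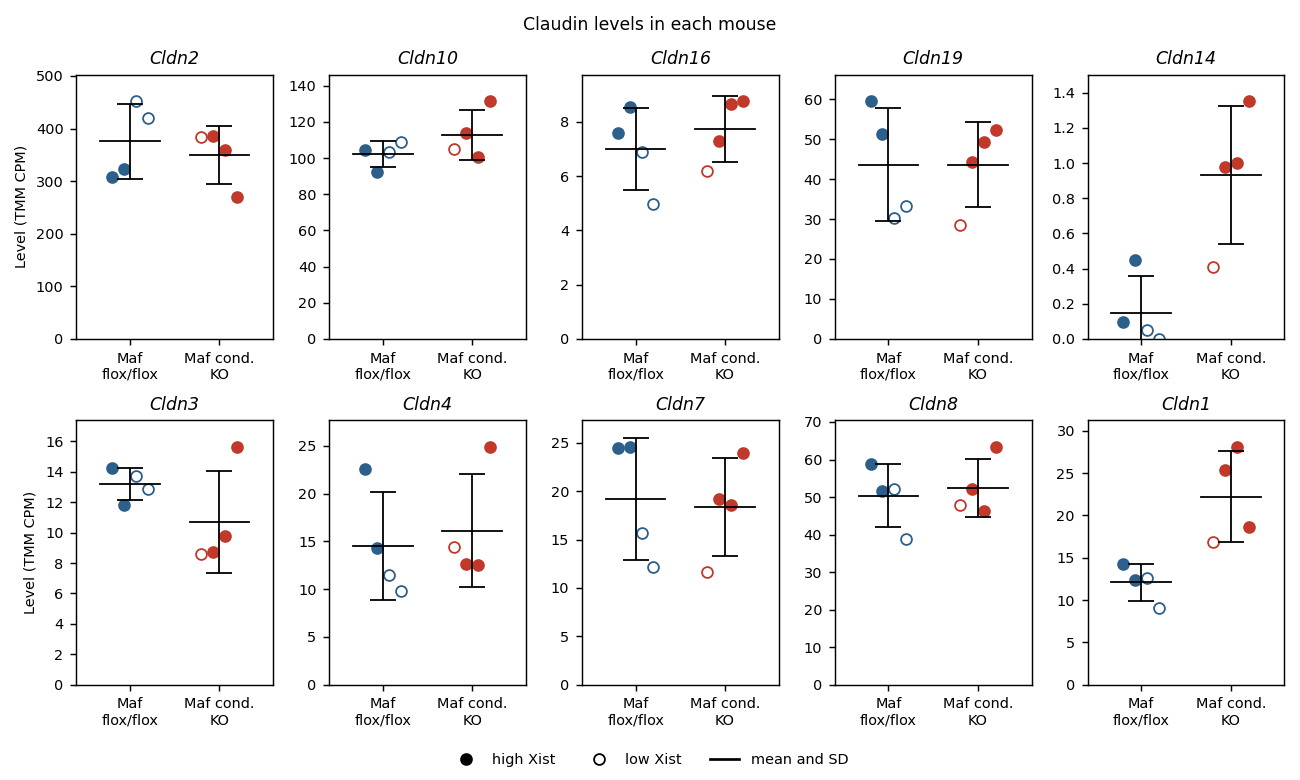
Level of each claudin (TMM CPM, y axis, from 0) in 4 Maf flox/flox (blue) and 4 Maf conditional KO mice (red), with filled points for mice with high Xist, open points for those with low Xist, and the mean and SD in black (the bar of Cldn14 is cut at 0). Cldn1 is the panel whose groups do not overlap, with KO mice from 16.8 and flox/flox mice up to 14.3 TMM CPM.

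In the adult kidney Cldn1 is best known from the flat parietal cells that line Bowman's capsule, and in skin it is a sealing claudin. It was at 16.8, 25.4, 28.1 and 18.6 TMM CPM in KO mice 1 to 4 and at 14.3, 12.4, 12.6 and 9.03 TMM CPM in flox/flox mice 1 to 4. All 4 KO mice were above all 4 flox/flox mice, by the least between KO mouse 1 and flox/flox mouse 1. The mean was 22.2 ± 5.37 TMM CPM in the KO mice and 12.1 ± 2.20 in the flox/flox mice (SD, n = 4 each), and the log2 fold change was 0.88 ± 0.18 (SE), or 1.84-fold with a 95% interval from 1.39 to 2.43 (adjusted p = 0.0334). The exact two-sided permutation test of its TMM CPM gave p = 0.0286, the smallest that 70 assignments of 4 against 4 mice allow. In whole kidney RNA, more cells that make a transcript and more of it in each cell cannot be told apart.

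The call of Cldn1 was lost when some single mice were left out, though its direction was kept. The adjusted p rose to 0.113 without KO mouse 2, 0.114 without KO mouse 3, 0.0861 without flox/flox mouse 2, 0.0875 without flox/flox mouse 3 and 0.0676 without flox/flox mouse 4, while the log2 fold change over all 8 such fits stayed between 0.74 and 0.99. Without KO mouse 1, the mouse with the largest mitochondrial share, the log2 fold change was 0.99 (adjusted p = 0.0113). When only the 5 high-Xist mice were fitted it was 0.85 ± 0.17 (adjusted p = 0.00960, and 3.75% of the genes in that fit were called), with 18.6 to 28.1 TMM CPM in 3 KO mice and 12.4 to 14.3 in 2 flox/flox mice. With the log2 Xist level as a covariate over all 8 mice, the log2 fold change of Cldn1 was 0.78 (adjusted p = 0.00380). In that fit 1441 of 20149 genes were called. In the mice with low Xist, the KO mouse was at 16.8 and the flox/flox mice at 9.03 and 12.6 TMM CPM. The markers of the podocytes, which sit in the same capsule, showed no called change (0 of 6, beside 2.16% of all genes called). Their summed level was 389 to 550 TMM CPM in the KO mice and 425 to 531 in the flox/flox mice. Among the lists of cells outside the tubule, the sums of macrophage and endothelial markers did not overlap, with 98.5 to 107.2 TMM CPM in the KO mice and 85.1 to 91.9 in the flox/flox mice for 6 macrophage markers and 391 to 407 against 417 to 477 TMM CPM for 6 endothelial markers, and the part of these cells in the level of Cldn1 was not tested.

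The genes whose levels ran most like those of Cldn1 over the 8 mice were sought among 12021 genes with a mean of at least 5 TMM CPM, by the root mean square difference of their centered log2 TMM CPM. The closest was Stc2, which encodes the secreted glycoprotein stanniocalcin-2, with a difference of 0.0996 (log2). Npnt, for the matrix protein nephronectin, followed at 0.171, and Car5b, for a mitochondrial carbonic anhydrase, at 0.173. Being chosen for likeness to a called gene, they had log2 fold changes on the same side of 0, of 0.89 for Stc2, 0.63 for Npnt and 0.75 for Car5b, of which only that of Car5b had an adjusted p under 0.05 (0.00620, against 0.0527 for Stc2 and 0.0661 for Npnt).

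Cldn1 lies on chromosome 16 (GRCm38, 26356642 to 26371841, minus strand), and its nearest claudin neighbor is Cldn16 (26463135 to 26482765, plus strand), 91.3 kb away with no other listed gene wholly between them. The neighbor was not called. Cldn16 was at 6.21, 7.29, 8.65 and 8.77 TMM CPM in KO mice 1 to 4 and at 7.60, 8.53, 6.90 and 4.98 TMM CPM in flox/flox mice 1 to 4. These ranges overlapped, and the log2 fold change was 0.14 ± 0.19 (SE; adjusted p = 0.806). It was 0.028 ± 0.18 in the high-Xist mice (adjusted p = 0.970) and 0.011 to 0.25 with a mouse left out, lowest without flox/flox mouse 4.

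**Figure D3:**
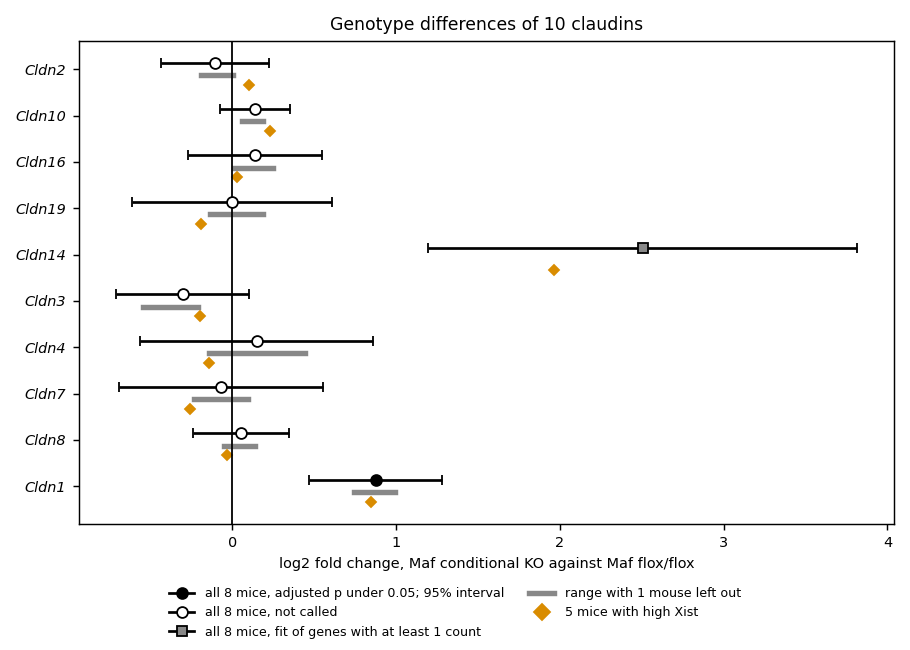
Log2 fold change of each claudin between Maf conditional KO and Maf flox/flox mice (x axis) with its 95% interval, the range over the fits with 1 mouse left out (gray bar, not drawn for Cldn14) and the value among the 5 mice with high Xist (diamond). The interval of Cldn1 lies above 0, those of Cldn2, Cldn10, Cldn16, Cldn19, Cldn3, Cldn4, Cldn7 and Cldn8 include 0, and Cldn14 (square) comes from a separate fit of all genes that had a count.

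The claudins of the proximal tubule were the most abundant members and none was called. Cldn2 forms pores for sodium and water in the proximal tubule and in the thin descending limb of deep nephrons. It was at 383, 386, 359 and 269 TMM CPM in KO mice 1 to 4 and at 308, 322, 452 and 420 TMM CPM in flox/flox mice 1 to 4. The lowest value was that of KO mouse 4 and the highest pair were flox/flox mice 3 and 4, with the other mice in between in both groups. The log2 fold change was -0.10 ± 0.15 (SE; adjusted p = 0.820), and its 95% interval, from 0.740 to 1.17-fold, bounds what these 8 mice could show. In the 5 high-Xist mice the value was on the other side of 0, at 0.10 ± 0.13 (adjusted p = 0.810).

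Cldn10 has an isoform that favors anions, in the proximal tubule, and another that favors cations, in the TAL. These start from different first exons (2 windows in the RefSeq table), and the counts per gene cannot separate them. Its level was 105, 114, 101 and 132 TMM CPM in KO mice 1 to 4 and 104, 92.4, 104 and 109 TMM CPM in flox/flox mice 1 to 4. KO mouse 4 was the highest and the other 7 mice lay between 92.4 and 114, with a log2 fold change of 0.14 ± 0.10 (SE; adjusted p = 0.578) and an interval from 0.950 to 1.28-fold. Without KO mouse 4 the value was 0.057, and in the high-Xist mice it was 0.23 ± 0.11 (adjusted p = 0.356). The ratio of Cldn2 to Cldn10 counts was 2.05 in KO mouse 4 and 2.95 to 4.37 in the other 7 mice.

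These values stood beside a proximal tubule that had changed in other genes. Of 8 markers of its S1 and S2 segments, 5 fell and 0 rose, beside 1.58% of all genes called lower. They were Slc5a2, the sodium glucose cotransporter SGLT2 (log2 fold change -3.71), Gatm, an enzyme of creatine synthesis (-3.78, not called without KO mouse 4 or any 1 of the flox/flox mice, adjusted p up to 0.0609, nor in the high-Xist mice, 0.113), Slc5a12, a lactate carrier (-1.71), Slc34a1, the sodium phosphate cotransporter (-1.23), and Slc2a2, the glucose transporter GLUT2 (-1.13). The endocytic receptors Lrp2 (-0.17, adjusted p = 0.719) and Cubn (-0.03, adjusted p = 0.912) were not called, as Cldn2 and Cldn10 were not. The median log2 fold change of the 8 markers was -1.18. This list was chosen with earlier results of these data known, and the paper reports Slc5a2 and Slc2a2 as lowered in them. The count of markers that fell is therefore a description and no independent test. Among 5 markers of S3, 0 were called, with the smallest p for Slc22a19, an organic anion transporter (0.54, adjusted p = 0.104), and then Slc22a7 (-0.36, adjusted p = 0.694). The test over all mice says little about Cyp7b1 and Acsm3, which split by Xist. Cyp7b1 was at 1.66 to 2.55 TMM CPM with high Xist and 97.8 to 170 with low Xist (-1.51 ± 1.94 SE). Acsm3 was at 2.03 to 6.82 and 387 to 545 TMM CPM (-0.56 ± 2.28 SE). With the log2 Xist level as a covariate they were -0.67 (adjusted p = 0.0131) and 0.36 (adjusted p = 0.667). Of 4 thin limb markers 1 rose (0.586% of all genes did), Fst for the activin-binding protein follistatin, from a mean of 3.90 to 12.1 TMM CPM (log2 fold change 1.63, adjusted p = 0.0152). This call was lost without KO mouse 2 or 3 or flox/flox mouse 3 or 4 (adjusted p up to 0.0620) and in the high-Xist mice (0.0592).

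In the TAL, Cldn16 and Cldn19 join into the paracellular path that reabsorbs magnesium and calcium, and Cldn14 binds Cldn16 and blocks it. Cldn19 was at 28.6, 44.3, 49.3 and 52.3 TMM CPM in KO mice 1 to 4 and at 59.5, 51.2, 30.2 and 33.3 TMM CPM in flox/flox mice 1 to 4. The spread within each genotype was wide and the means nearly equal, 43.6 ± 10.5 and 43.6 ± 14.1 TMM CPM (SD, n = 4 each). The 3 lowest values, 28.6, 30.2 and 33.3 TMM CPM, were those of the 3 low-Xist mice, 1 of them KO and 2 flox/flox. The log2 fold change was 0.00 ± 0.26 (SE; adjusted p = 1.00) over all mice and -0.19 ± 0.10 (adjusted p = 0.416) in the 5 high-Xist mice. The ratio of Cldn16 to Cldn19 counts was 0.165 to 0.217 in the KO mice and 0.128 to 0.228 in the flox/flox mice.

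Cldn14 was the rarest member and the furthest apart in proportion. Its raw counts were 8, 19, 18 and 25 in KO mice 1 to 4, and 2, 10, 1 and 0 in flox/flox mice 1 to 4, or 70 against 13 in all. Flox/flox mouse 2 with 10 counts lay above KO mouse 1 with 8, so that the groups overlapped, and 0 counts in flox/flox mouse 4 allow a level of up to 0.176 TMM CPM (3 counts, counting error only). The means were 0.934 ± 0.391 and 0.150 ± 0.205 TMM CPM (SD, n = 4 each), and the exact two-sided permutation test gave p = 0.0571. With counts this low Cldn14 was outside the main test. A fit over the 37792 genes that had a count in some mouse, which called 1.59% of them, gave a log2 fold change of 2.50 ± 0.64 (SE; adjusted p = 0.0382), a 5.68-fold difference with an interval from 2.29 to 14.1. In that fit the adjusted p was 0.103 without KO mouse 2, 0.143 without KO mouse 3, 0.111 without KO mouse 4, 0.104 without flox/flox mouse 1, 0.138 without flox/flox mouse 3 and 0.0577 without flox/flox mouse 4, and without flox/flox mouse 2 the log2 fold change was 4.00. In the high-Xist mice it was 1.96, with an adjusted p of 0.0369 over genes that had a count and of 0.111 over the genes that passed the usual filter. The 36-base runs of its transcripts were shared with no other gene.

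The markers of the TAL itself were not called (0 of 8 in either direction, beside 2.16% of all genes called, median log2 fold change -0.02). The 2 with the smallest p were Ptger3, a prostaglandin E2 receptor (0.50, adjusted p = 0.136), and Egf, epidermal growth factor (-0.35, adjusted p = 0.363). In the high-Xist mice alone Ptger3 was called (0.68, adjusted p = 0.00142, and 3.75% of the genes in that fit were called). Their summed level was 4240 TMM CPM in KO mouse 1, the lowest, and 5963 to 7328 TMM CPM in the other 7 mice, and KO mouse 1 was also the lowest in Cldn19 and among the 3 lowest in Cldn16. Casr, the calcium-sensing receptor through which calcium raises Cldn14 in this segment, was at 121 to 149 TMM CPM in the KO mice and 124 to 166 TMM CPM in the flox/flox mice (log2 fold change 0.00, adjusted p = 0.996).

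Cldn3, Cldn4, Cldn7 and Cldn8 belong to the distal nephron and collecting duct, where Cldn4 and Cldn8 interact to let chloride pass between the cells and Cldn7 is found also on the lateral membrane. None of them was called. Cldn8 was the most abundant of them, at 47.8, 52.0, 46.4 and 63.4 TMM CPM in KO mice 1 to 4 and 58.7, 51.7, 52.3 and 38.9 TMM CPM in flox/flox mice 1 to 4. The groups overlapped between 46.4 and 58.7 TMM CPM, and the log2 fold change was 0.06 ± 0.13 (SE; adjusted p = 0.896), with an interval from 0.849 to 1.27-fold. The high-Xist mice gave -0.034 ± 0.12 (adjusted p = 0.948).

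Cldn7 was at 11.7, 19.2, 18.6 and 23.9 TMM CPM in KO mice 1 to 4 and at 24.5, 24.6, 15.7 and 12.1 TMM CPM in flox/flox mice 1 to 4. As with Cldn19, the 3 mice with low Xist held the 3 lowest values, 11.7, 12.1 and 15.7 TMM CPM, and KO and flox/flox mice overlapped. The log2 fold change was -0.07 ± 0.27 (SE; adjusted p = 0.941) over all mice and -0.26 ± 0.13 (adjusted p = 0.381) in those with high Xist. In a fit with genotype and Xist class together, chosen after the counts were seen, Cldn7 and Cldn19 were the 2 of 9 claudins called between the classes, beside 12.2% of all genes.

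Cldn4 was at 14.4, 12.7, 12.5 and 24.9 TMM CPM in KO mice 1 to 4 and at 22.6, 14.3, 11.5 and 9.79 TMM CPM in flox/flox mice 1 to 4. KO mouse 4 and flox/flox mouse 1 were well above the other 6 mice, which lay between 9.79 and 14.4 TMM CPM. The log2 fold change was 0.15 ± 0.31 (SE; adjusted p = 0.882), with a wide interval from 0.677 to 1.82-fold. In the high-Xist mice it was on the other side of 0, at -0.14 ± 0.44 (adjusted p = 0.941).

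Cldn3, which has Cldn4 as a neighbor 39.3 kb away on chromosome 5 and on the opposite strand, was at 8.60, 8.73, 9.76 and 15.6 TMM CPM in KO mice 1 to 4 and at 14.2, 11.8, 13.8 and 12.9 TMM CPM in flox/flox mice 1 to 4. KO mice 1 to 3 were below all flox/flox mice, and KO mouse 4 was above them all. The log2 fold change was -0.30 ± 0.19 (SE; adjusted p = 0.513), and -0.55 without KO mouse 4 (adjusted p = 0.0738). In the high-Xist mice it was -0.20 ± 0.23 (adjusted p = 0.786). About 3.18% of the exon bases of Cldn3 are shared with Wbscr25 and 2.11% of those of Cldn19 with Gm12927, and reads there were not counted. The other 8 members share none.

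Some of the collecting duct markers were also highest in KO mouse 4 and flox/flox mouse 1. Aqp2, the vasopressin-regulated water channel, was at 230 TMM CPM in KO mouse 4 and in flox/flox mouse 1 alike, and at 121 to 194 TMM CPM in the other 6. Aqp4, a basolateral water channel, was at 114 and 106 TMM CPM in those mice and at 39.1 to 98.5 TMM CPM in the others, and Fxyd4, a regulator of the sodium pump, at 19.9 and 25.7 against 8.98 to 16.7 TMM CPM. For Aqp3, Hsd11b2, Scnn1b and Scnn1g, KO mouse 4 did not stand out, since KO mouse 2 was above it in all 4 (142.6 against 140.5 TMM CPM for Hsd11b2). The summed level of Cldn3, Cldn4, Cldn7 and Cldn8 was likewise highest in them, at 128 and 120 TMM CPM against 73.7 to 102.4 in the other 6, where the sum over 8 principal cell markers was 667 and 728 against 408 to 576 TMM CPM. The part of principal cell RNA in the claudin values was not tested. Of 7 principal cell markers tested, 0 were called, beside 2.16% of all genes. The smallest p were those of Fxyd4 (log2 fold change -0.44, adjusted p = 0.558) and Aqp3 (-0.21, adjusted p = 0.631). The ratio of Cldn4 to Cldn8 counts, 0.244 to 0.393 in the KO mice and 0.219 to 0.384 in the flox/flox mice, was also highest in KO mouse 4 and flox/flox mouse 1.

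**Figure D4:**
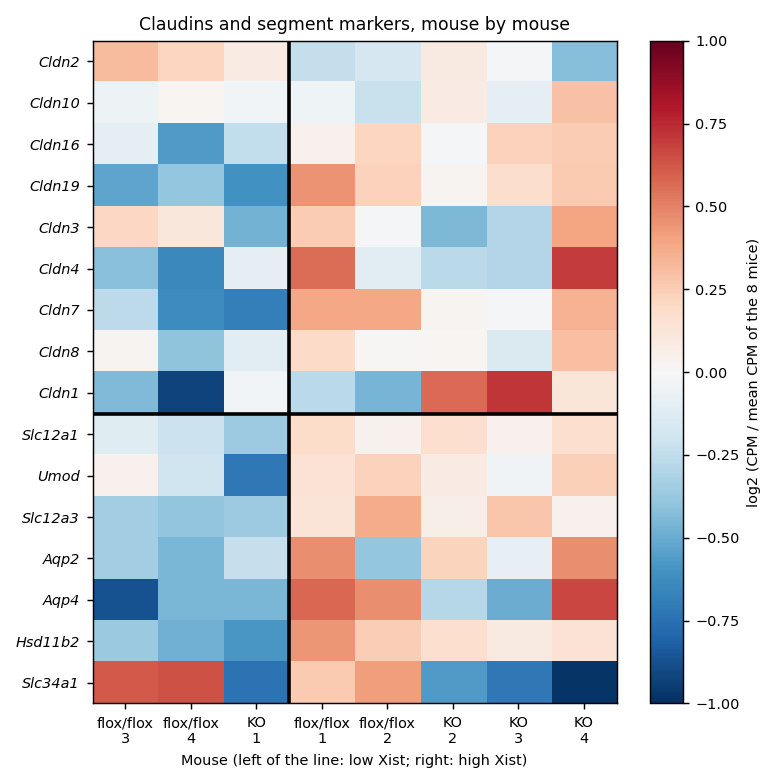
Heat map of 9 claudins (above the line) and 7 segment markers (below) in the 8 mice, as log2 of the TMM CPM over the mean of the 8 mice (color), with the 3 mice with low Xist at the left. Cldn19, Cldn7 and Hsd11b2 are lowest at the left, Cldn4, Aqp2 and Aqp4 are highest in flox/flox mouse 1 and KO mouse 4, and Cldn1 is highest in KO mice 2 and 3.

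The other distal lists held no called gene either, beside 2.16% of all genes called. Of 4 markers of the distal convoluted tubule 0 were called, with Pvalb, the calcium binder parvalbumin, at a log2 fold change of -0.84 (adjusted p = 0.126) and Emx1 at -0.12 (adjusted p = 0.766). Of 5 markers of the connecting tubule 0 were called, with Slc8a1, the sodium calcium exchanger, at 0.56 (adjusted p = 0.0515) and Trpv5, the apical calcium channel, at -0.48 (adjusted p = 0.278). Of 6 intercalated cell markers 0 were called, with Slc4a1 at 0.19 (adjusted p = 0.514) and Atp6v0d2 at 0.12 (adjusted p = 0.663).

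Beyond the nephron list, 23 further claudin genes were in the matrix and 3 of them were tested. Cldn12, a claudin of many epithelia, was at 64.3 to 80.0 TMM CPM in the KO mice and 65.3 to 76.0 TMM CPM in the flox/flox mice (log2 fold change -0.06, adjusted p = 0.830). Cldn15, a cation pore of the intestine, had a log2 fold change of 0.26 (adjusted p = 0.463), and Cldn5, the claudin of endothelium, one of -0.12 (adjusted p = 0.880). Of the other 20, 8 had no count in any mouse, among them Cldn22, all of whose exon bases are shared with Wwc2, so that no read on it could be counted.

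Of 28 genes tested for proteins that claudins work with at the junction, 1 rose and 1 fell, beside 2.16% of all genes called, with a median log2 fold change of -0.01. Cgnl1, which encodes paracingulin, a linker of the junction to the cytoskeleton, fell from 726, 660, 775 and 883 TMM CPM in flox/flox mice 1 to 4 to 480, 530, 535 and 479 TMM CPM in KO mice 1 to 4. All KO mice were below all flox/flox mice, with a log2 fold change of -0.59 ± 0.10 (SE; adjusted p = 0.0115), and the call held with each mouse left out. Jam3, an adhesion molecule of junctions and vessels, rose from 11.8 to 15.2 TMM CPM in the flox/flox mice to 18.0 to 22.1 TMM CPM in the KO mice (log2 fold change 0.60 ± 0.11, adjusted p = 0.0171), with 36.2% of its exon bases shared with Gm48796 and so not counted. The call of Jam3 was lost without KO mouse 2 or 3 or flox/flox mouse 3 (adjusted p up to 0.0803) and in the high-Xist mice (0.0528).

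Occludin and the zonula occludens scaffolds given here, which form the junction with the claudins and tie it to actin, were not called. Ocln was at 24.3 to 31.1 TMM CPM in the KO mice and 30.6 to 35.6 TMM CPM in the flox/flox mice, which overlapped (log2 fold change -0.28 ± 0.10 SE, adjusted p = 0.209). The values for the scaffolds were -0.01 for Tjp1 and -0.07 for Tjp3, with adjusted p of 0.985 and 0.922. The 95% interval ran from 0.887 to 1.12-fold for Tjp1.

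Of 19 genes known to act on claudins, 0 rose and 1 fell, beside 2.16% of all genes called, with a median log2 fold change of 0.04. Pth1r, the parathyroid hormone receptor, was at 298 to 365 TMM CPM in the KO mice and 429 to 493 TMM CPM in the flox/flox mice, without overlap (log2 fold change -0.48 ± 0.09 SE, adjusted p = 0.0194). Its call was lost without KO mouse 2 or 4 or flox/flox mouse 3 or 4 (adjusted p up to 0.0701) and held in the high-Xist mice (0.0279). Klhl3, which targets Cldn8 for degradation, and the kinase Wnk4, which phosphorylates claudins, had log2 fold changes of 0.05 (adjusted p = 0.887) and 0.04 (adjusted p = 0.896).

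**Figure D5:**
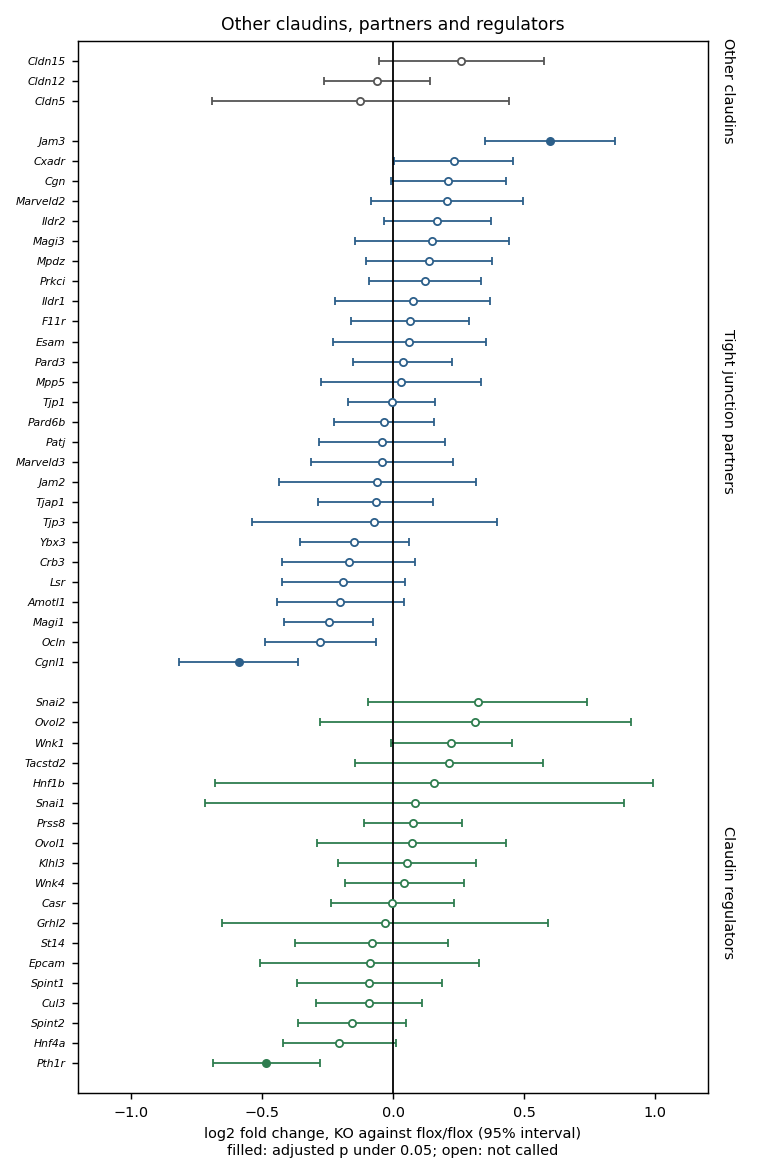
Log2 fold change between Maf conditional KO and Maf flox/flox mice (x axis) with its 95% interval for 3 other claudins, the tight junction partners reported here and 19 regulators of claudins, filled where the adjusted p was under 0.05. Jam3 is the filled point above 0, and Cgnl1 and Pth1r are the filled points below 0.

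The markers of other cells gave 1 call in 28 tested genes, beside 2.16% of all genes. Of 6 endothelial markers, Kdr, a receptor for vascular endothelial growth factor, fell (log2 fold change -0.37, adjusted p = 0.0450), a call that was lost in all 8 fits with a mouse left out (adjusted p up to 0.138) and in the high-Xist mice (0.0534). None was called among 6 podocyte, 6 macrophage, 2 lymphocyte, 4 fibroblast and 4 hepatocyte markers. The smallest adjusted p in these lists was 0.769 for podocytes, 0.324 for macrophages, 0.428 for lymphocytes, 0.631 for fibroblasts and 0.0803 for hepatocytes. The last was that of Alb, at 0.661 to 2.57 TMM CPM in the KO mice and 2.69 to 8.85 TMM CPM in the flox/flox mice (log2 fold change -2.04), which was called in the high-Xist mice (-2.35, adjusted p = 0.000529) and with Xist as a covariate (3.14e-05). Of 6 tubular injury genes 0 were called, the smallest p being those of Cd44 (0.70, adjusted p = 0.206) and Vcam1 (0.44, adjusted p = 0.353). In the high-Xist mice 1 of them was called, Spp1 for osteopontin, which was lower (-0.69, adjusted p = 0.000231).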

How the data were processed

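The authors deposited 1 table of raw counts per gene name, made per the file headers with featureCounts 2.0.1 on exons of Ensembl GRCm38 release 102, whereas the submitters' notes name Subread 2.0.2 and edgeR 3.36.0. Per the header's command, reads of a pair were counted separately without regard to strand, and those that touched several genes or aligned to several places were dropped, which lowers genes that share sequence. The aligner is not given in the sources used here. The paper's own route (CLC Genomics Workbench, quantile scaling) starts from reads and was not repeated.

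Genes were filtered with filterByExpr, scaled by TMM (factors 0.857 to 1.11) and compared over all 8 mice with the robust quasi-likelihood test of edgeR 4.0.16 (R 4.3.3, limma 3.58.1), without covariates, at a Benjamini-Hochberg adjusted p under 0.05 over all 20149 genes tested. An SE is the log2 fold change over the square root of F. Exact permutation tests of TMM CPM (SciPy 1.17.1) used all 70 assignments of mice. The adjusted p of lists is that over all genes. The exon lengths in the deposited table gave levels per kb.

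The members, gene lists and tests were chosen with earlier results of these data known. The genes named were the 10 claudins, Maf, Xist, the called genes of each list (up to 5 per direction, or the 2 of smallest p where none was called), Ocln, Tjp1, Tjp3, Casr, Klhl3, Wnk4 and the 3 profiles closest to each called claudin; other segment markers were named after their values were seen, and some genes of the lists are counted but not reported here by name. The lists were tight junction partners, claudin regulators, markers of proximal S1 and S2, proximal S3, thin limb, TAL, distal convoluted tubule, connecting tubule, principal cells, intercalated cells, podocytes, endothelium, macrophages, lymphocytes, fibroblasts and hepatocytes, and tubular injury genes. No pair of libraries of a genotype was close enough in its counts to be a copy. Precision is set by 4 mice per genotype, and low counts, as for Cldn14, add counting error. Tested on simulated counts of 19679 genes with 200 changed in this comparison, the fit recovered 65% of 2-fold and 93% of 4-fold changes with 16 false calls among 174. Alternatives were RLE, upper-quartile and quantile scaling (with limma-trend), 2 other filters, DESeq2 1.42.0, edgeR's exact test, the replicate number as a block, Xist as a covariate or limited to mice with over 1000 counts, mitochondrial and ribosomal RNA genes left out, an adjusted p under 0.01, and each mouse left out. Promoters came from RefSeq (GRCm38.p6), transcripts from GENCODE (GRCm38), and plots used matplotlib 3.10.9 under Python 3.11.15. Of the study's own data, only the count table was analysed.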

Additional observations from a re-analysis of the deposited data

Results flagged for a closer look

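Of 22 groups of 4 mice examined (Maf and the 10 claudins in each genotype), 2 held a mouse far from the other 3 by Dixon's criterion, where chance gives about 1 in 20, or 1.1 groups. Cldn3 was at 15.6 TMM CPM in KO mouse 4 and at 8.60 to 9.76 TMM CPM in the other 3 KO mice, a gap of 0.835 of the whole range. Cldn4 was at 24.9 TMM CPM in the same mouse and at 12.5 to 14.4 TMM CPM in the other 3, a gap of 0.849 of the range. Of 7 principal cell markers tested, Aqp2, Aqp4 and Fxyd4 were highest among the KO mice in KO mouse 4 and Aqp3, Hsd11b2, Scnn1b and Scnn1g in KO mouse 2, and the part of collecting duct RNA in these values was not tested.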

How the results depend on the processing

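The log2 fold change of Cldn1 was 0.78 to 0.92 in 11 other fits and 0.74 to 0.99 with 1 mouse left out. Its adjusted p was 0.000880 with DESeq2 and 0.00174 with edgeR's exact test. The count of called claudins, 1, was 2 (Cldn14 with Cldn1) among genes with at least 1 count and 0 at an adjusted p under 0.01, and 0 to 1 with 1 mouse left out. The count of called genes, 436, was 887 with DESeq2, 676 with the exact test, 1441 with Xist as a covariate, 789 among mice with high Xist, 180 at an adjusted p under 0.01, and 239 to 452 with 1 mouse left out; the causes were not tested. Values near 0 changed sign. Cldn2 was 0.034 with quantile scaling and 0.10 among mice with high Xist, where Cldn4 was -0.14, Cldn8 -0.034 and Cldn19 -0.19, and Cldn19 was -0.16 with the Xist covariate. With 1 mouse left out the ranges were -0.19 to 0.0021 for Cldn2, -0.14 to 0.19 for Cldn19, -0.14 to 0.44 for Cldn4, -0.23 to 0.10 for Cldn7 and -0.049 to 0.14 for Cldn8. For Cldn10 it was 0.057 to 0.19 and for Cldn3 -0.55 to -0.21. Cldn3, Cldn10 and Cldn16 kept their sign in all fits and were called in none. Maf had an adjusted p of 0.108 among mice with high Xist, with a log2 fold change of -3.87. The permutation tests on log2 TMM CPM stayed on the same side of 0.05 for all 10 claudins.

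The replicate numbers are shared between the genotypes, but nothing in the labels pairs the mice. Same-numbered mice did not deviate together (correlations of -0.37, 0.15, -0.11 and -0.33), and 1 of 4 KO mice correlated best with its own number. With the replicate number as a block, 129 genes and 0 claudins were called, with adjusted p of 0.102 for Cldn1, 0.180 for Cldn14 and 0.0516 for Maf.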

Other observations

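Of the 9 claudins tested, 2 differed between mice with low and high Xist, Cldn19 of the TAL and Cldn7 of the distal nephron. This grouping was chosen after the counts were seen, and the labels give no sex. Cldn19 was at 28.6 to 33.3 TMM CPM in the 3 mice with low Xist and at 44.3 to 59.5 TMM CPM in the 5 mice with high Xist, and Cldn7 at 11.7 to 15.7 and 18.6 to 24.6 TMM CPM. In a fit with genotype and Xist class, the log2 difference of high against low Xist was 0.79 ± 0.09 for Cldn19 (SE; adjusted p = 2.03e-05, edgeR quasi-likelihood test) and 0.81 ± 0.12 for Cldn7 (adjusted p = 0.000310), beside 12.2% of all genes called. The other distal claudins were not called, with adjusted p of 0.703 for Cldn3, 0.352 for Cldn4 and 0.241 for Cldn8. Cldn16 did not overlap between the classes either (4.98 to 6.90 and 7.29 to 8.77 TMM CPM), with a log2 difference of 0.42 ± 0.16 (adjusted p = 0.106), and Cldn2, on the X chromosome, was on the other side at -0.35 ± 0.11 (adjusted p = 0.0574). The genotype difference was not shown to depend on the class for any of the 9 claudins (smallest adjusted p of the interaction 0.761), with 1 KO mouse in the low class.

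In the same fit 1135 of 20149 genes were higher and 1327 lower with high Xist. The higher ones included 5 of 8 TAL markers (Slc12a1 by 0.37 on the log2 scale), 4 of 7 principal cell markers (Hsd11b2, which inactivates glucocorticoids, by 0.75), 3 of 6 intercalated cell markers (Slc26a4, the chloride bicarbonate exchanger pendrin, by 0.69) and 5 of 6 podocyte markers (Synpo by 0.51), with 0 lower in these lists, and 2 of 4 distal convoluted tubule, 2 of 5 connecting tubule, 2 of 8 S1 and S2 and 2 of 4 hepatocyte markers, with 1 S1 and S2 marker lower. Of 5 S3 markers 3 were lower with high Xist, among them Slc7a13 by a log2 difference of -8.17. Of 6 tubular injury genes 2 were higher and 1 lower, the last being Havcr1 (-2.78, adjusted p = 0.0346). Of 19 claudin regulators 7 were higher and 1 lower, of 28 tight junction partners 2 and 2, and of 4 thin limb markers 1 and 0. The mitochondrial share was 18.7% to 32.3% in the mice with low Xist and 17.1% to 22.1% in those with high Xist, and its part in these differences was not tested.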
